A study of Mus musculus with 4 samples.

Results

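Among 24421 genes counted in DPPIV- and DPPIV+ fibro-adipogenic progenitors (FAPs) of mouse skeletal muscle, 9 nuclear receptor genes, taken by symbol, are described here. They are the NR4A orphan receptors Nr4a1, Nr4a2 and Nr4a3, the COUP receptors Nr2f1, Nr2f2 and Nr2f6, and the receptors for oestrogen (Esr1), thyroid hormone (Thra) and vitamin D (Vdr). FAPs, the stromal progenitors of the muscle interstitium, were sorted as PI- CD31- CD45- Sca1+ cells and split by DPPIV, the surface peptidase that Dpp4 encodes. Each of 2 wild-type mice gave 1 DPPIV- and 1 DPPIV+ sample, so that every comparison was made within an animal with n = 2 mice. Both animals had received a CSF1R inhibitor, PLX73086 in the chow, for 3 weeks to deplete macrophages, followed by 3 days on a regular diet, and this treatment was shared by all 4 libraries. No untreated library is among the 4, the labels give neither age nor sex, and the cells came out of enzymatic digestion before the sort. The labels name the tibialis anterior as the source, while the extraction protocol describes both hindlimbs. The comparison asks how the FAPs that carry DPPIV differ from those that do not.

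Nuclear receptors are transcription factors that read lipid-soluble signals in many cases and bind DNA as monomers, homodimers or partners of the retinoid X receptors. The NR4A receptors are orphans, with no settled physiological ligand. Their activity is thought to follow mainly from how much of them a cell makes, and their genes are classical immediate early genes, which respond quickly to growth factors, cyclic AMP and stress. COUP-TFI (Nr2f1) and COUP-TFII (Nr2f2) often act as repressors, and COUP-TFII is known from veins, lymphatics and mesenchyme. EAR2 (Nr2f6) is their shorter relative. The oestrogen, thyroid hormone and vitamin D receptors answer to circulating hormones, and each depends on enzymes and transporters that make, clear or carry its ligand.

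The 3 NR4A genes had a sequence feature in common that the choice of genes did not use. In the RefSeq promoters (GRCm38.p6, 250 bases before to 50 after the start), the core of the cyclic AMP response element, TGACG, was counted on both strands. It occurred 4 times in the promoter of Nr4a1, 4 times in that of Nr4a2 and 4 times in that of Nr4a3. The count was 0 in each of the other 7 promoter entries, which belong to Esr1, Nr2f1, Nr2f2, Nr2f6 and Vdr (8 of the 9 genes had an entry, and Thra had none). These windows are not all alike. Those of Nr2f1 and Nr2f2 and the first of Esr1 begin inside an annotated exon. The GC content before the start ran from 39.6% to 82.4% in these entries, against 63.6% to 80.0% in the NR4A genes. Of all 32851 promoters, 20.8% held the core and 0.231% held it 4 or more times, and of the 9690 promoters with at least 60% GC the shares were 31.6% and 0.557%. The cut-off of 4 is the count seen in the NR4A genes themselves, so these shares are a description and not a test. The 3 upstream stretches are printed because all 3 genes were lower in DPPIV+ FAPs, by unequal amounts, with each core in capitals (CGTCA is the core read on the other strand) and without the bases that fall in an annotated exon, which removes 1 core of Nr4a3. The Nr4a1 stretch (chr15:101266596-101266845, + strand) lies within an intron of the longest annotated Nr4a1 transcript and just before the start of shorter ones. The stretches of Nr4a2 (chr2:57124004-57124253, - strand) and Nr4a3 (chr4:48045055-48045152, + strand) lie before the annotated genes.
Nr4a1: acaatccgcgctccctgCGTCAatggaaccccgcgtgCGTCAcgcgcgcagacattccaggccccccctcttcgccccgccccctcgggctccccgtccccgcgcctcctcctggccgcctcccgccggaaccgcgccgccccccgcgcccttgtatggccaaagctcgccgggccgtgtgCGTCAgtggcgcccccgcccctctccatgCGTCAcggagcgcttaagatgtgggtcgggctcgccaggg
Nr4a2: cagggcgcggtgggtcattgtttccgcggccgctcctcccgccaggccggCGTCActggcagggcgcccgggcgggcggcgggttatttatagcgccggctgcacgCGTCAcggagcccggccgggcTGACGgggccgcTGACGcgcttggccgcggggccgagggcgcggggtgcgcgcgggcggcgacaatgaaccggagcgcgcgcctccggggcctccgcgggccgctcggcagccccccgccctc
Nr4a3: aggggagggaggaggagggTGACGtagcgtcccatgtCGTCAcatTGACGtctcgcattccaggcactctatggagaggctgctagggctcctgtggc
A full palindromic element (TGACGTCA) was found in none of the 10 entries. A match is a description of the letters in this window and not evidence of a bound site.

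Each library held 18240110 to 20879405 reads on genes, and 3 reads, the limit that a count of 0 allows, corresponded to 0.143 to 0.166 CPM (counts scaled to a common library total). A gene was tested if 2 or more libraries reached 2 CPM, which kept 11588 genes and 8 of the 9 receptors. Marker genes fixed in lists bore on what the sorts held. FAP markers were abundant in all libraries (Pdgfra at 1157 to 1654 CPM), and of 6 of them 4 were lower and 1, Ly6a (Sca1), was higher in DPPIV+ FAPs. The summed CPM of 5 lymphatic endothelial markers lay between 4.44 and 8.04, that of 4 satellite cell markers between 1.37 and 1.62, that of 5 myofibre markers between 40.6 and 63.7, and that of 4 glial markers between 18.8 and 28.0. Of these lists, 9 genes were tested, and Mbp, a myelin gene, was the only one called, as higher. Macrophage markers summed to 129 and 89.1 CPM in the DPPIV- FAPs of mouse 1 and mouse 2 and to 94.0 and 80.1 CPM in DPPIV+ FAPs, with 4 of 7 lower and 0 higher. DESeq2, an alternative test, called 0 of the 7. For Csf1r and C1qa, which are among the 4, the log2 ratios were -0.59 and -0.58 in mouse 1 but -0.001 and -0.05 in mouse 2. Mural markers summed to 121 and 123 CPM in DPPIV- FAPs against 51.1 and 63.4 CPM in DPPIV+ FAPs, with 5 of 6 lower (3 by DESeq2). Tenocyte markers summed to 1795 and 2386 CPM in DPPIV- FAPs and to 1898 and 3759 CPM in DPPIV+ FAPs, with 4 of 5 higher and 1 lower. The lower one, Thbs4, had log2 ratios of -0.47 in mouse 1 and 0.08 in mouse 2 and was not called by DESeq2. Beside these counts, 17.2% of all genes tested were lower and 15.9% higher by edgeR, the main test, and DESeq2 called 16.6%. In bulk samples, fewer cells of a type and less RNA per cell cannot be told apart.

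All 3 NR4A genes and 2 of the 3 COUP genes were lower in DPPIV+ than in DPPIV- FAPs, whereas Thra was slightly higher and Esr1 and Nr2f1 did not pass the test. The largest differences were those of Nr2f2, which was 2.63-fold lower, and Nr4a2, which was 2.40-fold lower. By edgeR's quasi-likelihood test with mouse in the model and Benjamini-Hochberg adjustment over all genes tested (threshold 0.05), 5 of the 8 receptors tested were lower and 1 was higher. Among all genes tested, 33.0% were called, 17.2% lower and 15.9% higher. This split moved with the scaling, since upper-quartile factors gave 2295 lower and 1489 higher genes and the correction for GC content and length gave 1699 lower and 2172 higher, where 4 receptors were lower and 2 higher. The median log2 fold change of the 8 receptors was -0.37, that of all genes tested was -0.002, and 6 of the 8 were lower in both mice against 36.9% of all genes. The receptors were chosen with earlier results of these data known, so these contrasts are a description and not a test. DESeq2's Wald test, which called 16.6% of genes, called 3 of the 8 (Nr2f2, Nr4a1 and Nr4a2), and edgeR without the mouse term, which called 18.3%, called 4 (those 3 and Nr4a3).

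**Figure D1:**
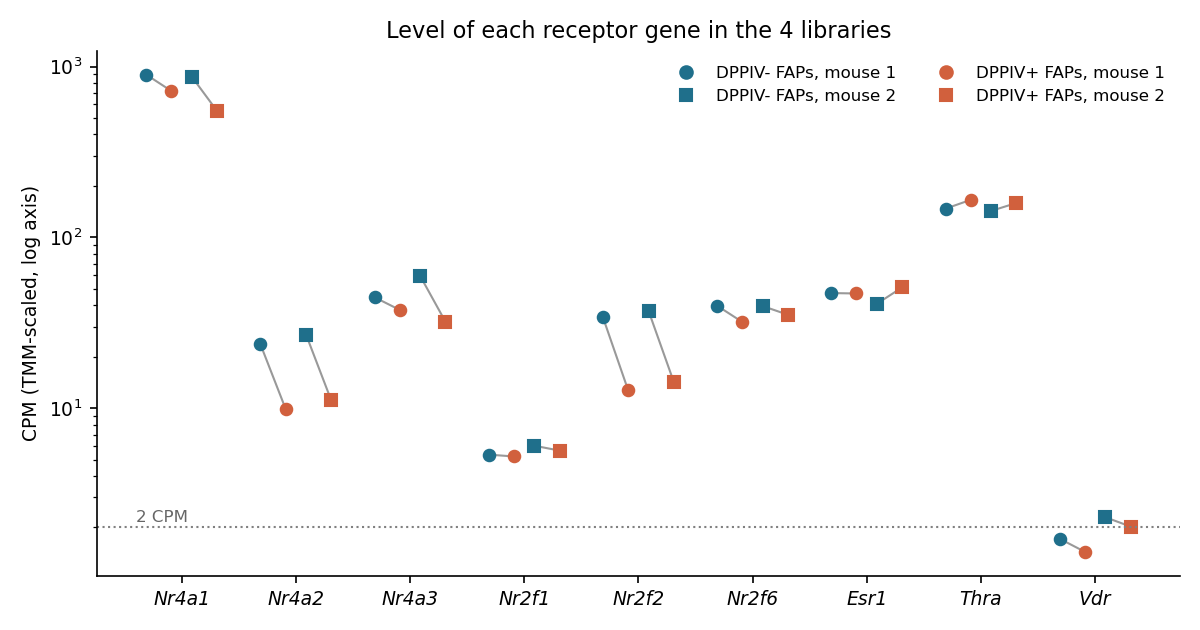
CPM of the 9 receptor genes (log axis) in each library, with circles for mouse 1, squares for mouse 2, blue for DPPIV- FAPs, orange for DPPIV+ FAPs and a grey line joining the cell types of a mouse; the dotted line marks 2 CPM. The lines of Nr4a2 and Nr2f2 fall steeply and alike in both mice, those of Nr4a1 and Nr4a3 fall more in mouse 2, and those of Nr2f1 and Thra are nearly flat.

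Nr4a1 (ENSMUSG00000023034.7, chr15:101254269-101274795, + strand), also called Nur77, had by far the highest level of the 9 genes. It measured 897 CPM in the DPPIV- cells of mouse 1 and 870 CPM in those of mouse 2, against 719 and 549 CPM in the DPPIV+ FAPs. Both DPPIV+ libraries were below both DPPIV- libraries, and the DPPIV+ library of mouse 2 was the lowest. The log2 fold change (DPPIV+ minus DPPIV-, as throughout) was -0.49 with a standard error (SE) of 0.07 and an adjusted p of 2.92e-11 by edgeR, a 1.40-fold lower level. DESeq2 gave an adjusted p of 2.26e-05. Over 12 alternative fits the adjusted p ran from 1.13e-12 to 0.251, and the call was lost in 1 of them, the fit without the DPPIV+ library of mouse 2, where the log2 fold change was -0.30. Within mouse 1 the log2 ratio was -0.32 and within mouse 2 it was -0.66.

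Nr4a2 (ENSMUSG00000026826.13, chr2:57106830-57124003, - strand), or Nurr1, known for its part in dopamine neurons, differed most within the family. Its level was 23.7 and 26.9 CPM in the DPPIV- cells of mouse 1 and mouse 2 and 9.92 and 11.1 CPM in the DPPIV+ FAPs. The mice thus gave nearly the same values, and the cell types stood well apart. Nr4a2 had a log2 fold change of -1.26 (SE 0.12, edgeR adjusted p = 1.52e-25), with -1.25 in mouse 1 and -1.27 in mouse 2. The adjusted p stayed between 5.97e-27 and 0.00304 in the 12 alternative fits, and DESeq2 gave 2.91e-08. Nr4a2 ranked 384 from the lowest fold change of the 11588 genes tested (percentile 3.31).

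Nr4a3 (ENSMUSG00000028341.9, chr4:48045153-48086447, + strand), or NOR1, measured 44.5 and 59.2 CPM in DPPIV- FAPs and 37.6 and 32.1 CPM in the DPPIV+ cells of mouse 1 and mouse 2. The groups did not overlap, but the gap was narrow in mouse 1 and wide in mouse 2. The log2 ratio was -0.25 in mouse 1 and -0.88 in mouse 2. In the joint fit the log2 fold change was -0.57 (SE 0.08, edgeR adjusted p = 4.07e-12). This SE does not measure the spread between the mice, and that of DESeq2 was 0.32. DESeq2 did not call it (adjusted p = 0.306), and neither did edgeR without the DPPIV- library of mouse 2 (0.0689) or without the DPPIV+ library of mouse 2 (0.179). With 1 library of each cell type per mouse, the difference between the mice in these ratios has no test.

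Per length, the NR4A family was nearly all Nr4a1. In CPM per kb of exon, the measure used here for levels between genes, Nr4a1 stood at 252 ± 5.44 in DPPIV- FAPs and 181 ± 34.1 in DPPIV+ FAPs (mean ± SD, n = 2 mice). Nr4a3 followed at 8.67 ± 1.74 and 5.82 ± 0.65, and Nr4a2 at 6.23 ± 0.56 and 2.59 ± 0.21. Nr4a1 made up 93.8% to 95.9% of the summed level per kb of the 3 genes in the 4 libraries, although Nr4a2 had the larger fold change. The sum was 269 and 264 CPM per kb in DPPIV- FAPs and 214 and 165 CPM per kb in DPPIV+ FAPs.

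The NR4A genes were set beside a list of 24 other genes, called immediate early genes here after the class switched on within minutes of a stimulus. Of these, 9 were higher, 12 were lower and 3 were not called in DPPIV+ FAPs, where 15.9% of all genes were higher and 17.2% lower. The 12 include the heat shock genes Hspa1a (-0.38) and Hspa1b (-0.47), which were also lower in mouse 2, by 1.17 and 1.03 on the log2 scale. The median log2 fold change of the 24 genes was -0.14. DESeq2 called 17 (7 higher and 10 lower), where it called 16.6% of all genes. The class therefore moved in both directions between the cell types. Egr1, the most counted of them, fell by 0.37 on the log2 scale (SE 0.08, edgeR adjusted p = 5.91e-06). The largest differences were those of Fosl1, an AP-1 subunit, at 1.68 (SE 0.26, edgeR adjusted p = 9.83e-10), of Egr3, a zinc finger factor, at -1.01 (SE 0.14, 3.43e-12) and of Gadd45b, a growth arrest gene, which was 2.01-fold lower (SE 0.07 on the log2 scale, 8.66e-49). Fosl1 was not called by DESeq2 (adjusted p = 0.269) and rested on 17 and 46 reads in DPPIV- FAPs against 111 and 70 in the DPPIV+ cells of mouse 1 and mouse 2.

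The lower ratio of Nr4a1 and Nr4a3 in mouse 2 had company in this list. The log2 ratio of DPPIV+ to DPPIV- FAPs was lower in mouse 2 than in mouse 1 for 21 of the 24 immediate early genes, against 46.8% of all genes tested. The median difference of the 2 ratios was -0.16 in the list and 0.02 over all genes. Whether this had a part in the values of the NR4A genes was not tested. In their promoters, 9 of the 19 immediate early genes with an entry held the CRE core, and 0 of the 19 held it 4 or more times. Among 35 other nuclear receptors with an entry, 12 held it and 0 held it 4 or more times. Here too the cut-off of 4 is the count of the NR4A genes, and the contrast was not tested.

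**Figure D2:**
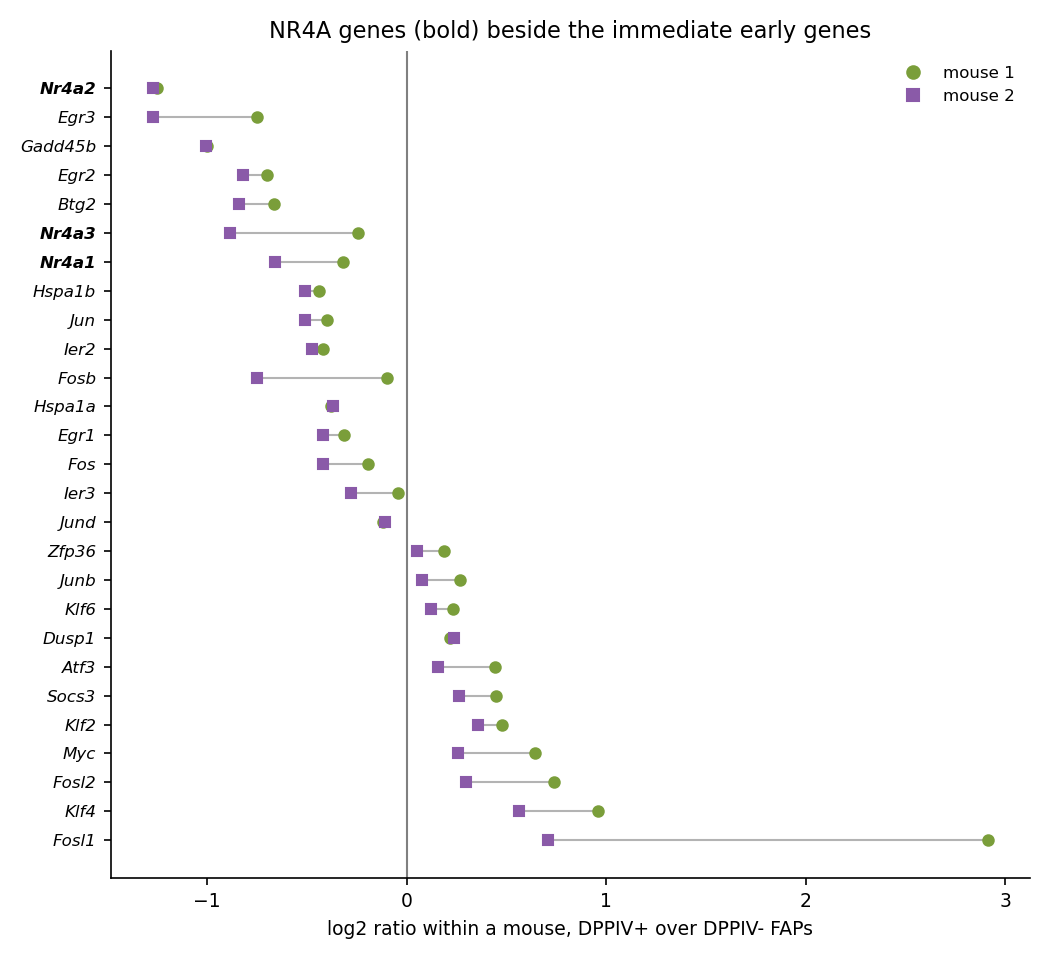
Log2 ratio of DPPIV+ over DPPIV- FAPs within mouse 1 (green circles) and mouse 2 (purple squares) for the 3 NR4A genes (bold) and 24 immediate early genes, sorted by the joint log2 fold change. The NR4A genes lie among the lower ratios with Egr3, Gadd45b, Egr2 and Btg2, and the square lies left of the circle for most genes.

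Nr2f2 (ENSMUSG00000030551.14, chr7:70351944-70366735, - strand), which encodes COUP-TFII, had the largest difference of the 9 receptors. Its level was 34.0 and 36.9 CPM in the DPPIV- cells of mouse 1 and mouse 2 and 12.8 and 14.2 CPM in the DPPIV+ FAPs. The values of the mice lay close together, and the cell types were far apart. The log2 fold change was -1.39 (SE 0.10, edgeR adjusted p = 3.32e-41), with -1.41 in mouse 1 and -1.38 in mouse 2. DESeq2 gave an adjusted p of 1.19e-12, and the 12 alternative fits ran from 5.71e-43 to 0.0012. Nr2f2 ranked 304 from the lowest fold change of the 11588 genes tested (percentile 2.62).

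Because COUP-TFII also marks venous and lymphatic endothelium, the endothelial and mural markers are given beside it. The shares over all genes tested were 17.2% lower and 15.9% higher. Of 6 blood endothelial markers, Pecam1, Cdh5, Kdr and Vwf were lower, Emcn was not called and Tek was higher, and DESeq2 called only Tek. Their sum was 253 and 187 CPM in DPPIV- FAPs and 506 and 461 CPM in DPPIV+ FAPs, most of it Tek. The log2 ratios in mouse 1 and mouse 2 were -0.80 and -0.001 for Pecam1, the antigen that the sort removes, -0.33 and -0.32 for Cdh5, -0.95 and 0.10 for Kdr and -1.36 and -0.34 for Vwf. Of the 5 lymphatic markers, Flt4 and Lyve1 were tested and not called, at log2 fold changes of -0.54 (SE 0.30) and -0.51 (SE 0.25). Their ratios differed between the animals, with -0.04 in mouse 1 and -1.18 in mouse 2 for Flt4 and 0.44 and -1.76 for Lyve1. Under the filter, Prox1 had 20 and 9 reads in DPPIV- FAPs and 10 and 27 in DPPIV+ FAPs, Mmrn1 had 12 and 20 against 28 and 13, and Ccl21a had 0 in all libraries. The 6 mural markers ranged widely, with log2 fold changes of -1.60 for Notch3, -1.32 for Kcnj8, -1.27 for Cspg4, -0.82 for Mcam and -0.42 for Rgs5, while Myh11 was not called (-0.28). Kcnj8 reached 2 CPM only in the DPPIV- libraries and was tested only through them. The part of endothelial, lymphatic or mural cells in the difference of Nr2f2 was not tested. An uncharacterized transcript on the opposite strand, B130024G19Rik, shares 643 exon bases with Nr2f2 (7.46% of them) and had 15 and 25 reads in DPPIV- FAPs against 0 and 1 in DPPIV+ FAPs.

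Nr2f6 (ENSMUSG00000002393.14, chr8:71374123-71381960, - strand) measured 39.7 and 39.5 CPM in DPPIV- FAPs and 31.9 and 35.2 CPM in DPPIV+ FAPs. The DPPIV+ values were both below the DPPIV- values by a small margin. With a log2 fold change of -0.24 (SE 0.08, edgeR adjusted p = 0.0125) the gene was called, but not by DESeq2 (0.439) or by edgeR without the mouse term (0.123), and 7 of 12 alternative fits lost the call, each fit without 1 library among them. Its count is uncertain, since Ocel1 on the opposite strand covers 1622 of its exon bases (54.4%). Ocel1 itself had 103 and 95 reads in DPPIV- FAPs and 84 and 66 in DPPIV+ FAPs, and whether the counting used strand is not given in the sources used here.

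Nr2f1 (ENSMUSG00000069171.14, chr13:78188973-78199757, - strand), which encodes COUP-TFI, was the least expressed of the COUP genes. It stood at 5.34 and 6.02 CPM in DPPIV- FAPs and 5.21 and 5.64 CPM in DPPIV+ FAPs, so that the groups overlapped. The log2 fold change was -0.07 (SE 0.20, edgeR adjusted p = 0.856), and 0 of 12 alternative fits called it. With 94 to 118 reads per library its SE was the largest of the 8 receptors tested. A830082K12Rik, an antisense transcript that shares 123 exon bases with Nr2f1, had 34 and 26 reads in DPPIV- FAPs against 17 and 28 reads in DPPIV+ FAPs. Per kb of exon, Nr2f6 led the COUP genes at 13.3 ± 0.04 in DPPIV- and 11.3 ± 0.78 in DPPIV+ FAPs, followed by Nr2f2 at 4.11 ± 0.24 and 1.56 ± 0.12 and Nr2f1 at 1.12 ± 0.09 and 1.07 ± 0.06. Nr2f2 therefore made up 21.5% and 22.9% of the summed COUP level in the DPPIV- cells of mouse 1 and mouse 2 and 11.2% and 11.3% in the DPPIV+ FAPs.

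**Figure D3:**
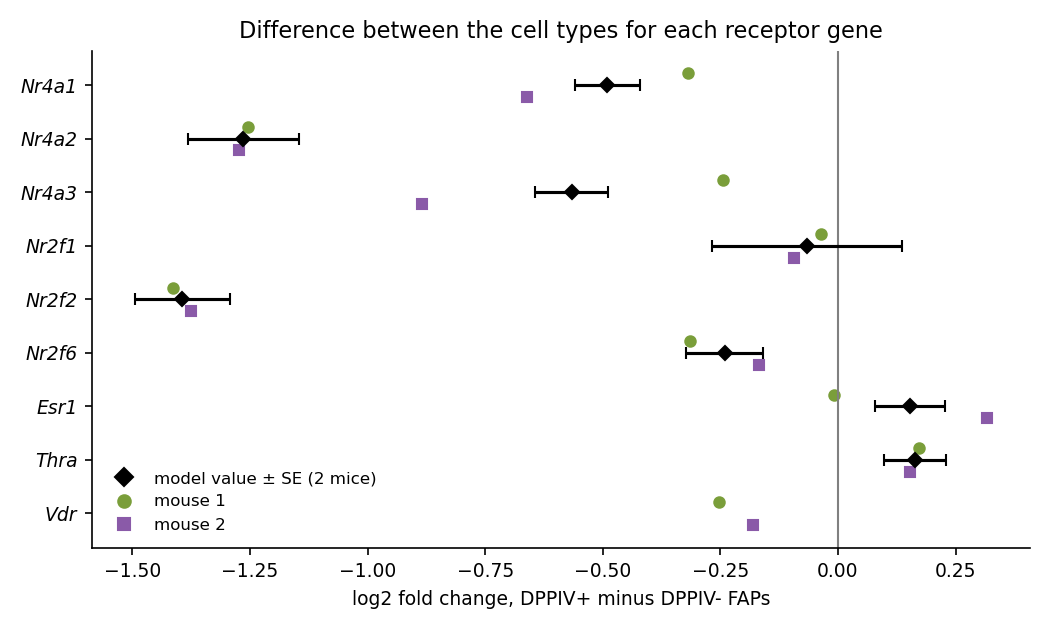
Log2 fold change of each receptor gene between DPPIV+ and DPPIV- FAPs. Black diamonds and bars give the value and SE of the joint fit, green circles the log2 ratio within mouse 1 and purple squares that within mouse 2. The bars come from a spread set by abundance and do not measure the spread between the 2 mice. Vdr was not tested and has no model value. Nr2f2 and Nr4a2 lie near -1.39 and -1.26 with both mice close by, and Esr1 has a ratio of -0.01 in mouse 1 and 0.32 in mouse 2.

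Thra (ENSMUSG00000058756.13, chr11:98740638-98769006, + strand), the thyroid hormone receptor alpha, was the single receptor of the 9 that was called higher. It measured 147 and 143 CPM in DPPIV- FAPs and 166 and 159 CPM in DPPIV+ FAPs. Both DPPIV+ values exceeded both DPPIV- values, by little. The log2 fold change was 0.16 (SE 0.07, edgeR adjusted p = 0.0435), a 1.12-fold higher level, with 0.17 in mouse 1 and 0.15 in mouse 2. DESeq2 (0.406) and edgeR without the mouse term (0.212) did not call it, and only 3 of 12 alternative fits did. Nr1d1, a receptor gene of the circadian clock on the opposite strand, shares 263 exon bases with Thra (5.70% of them) and was lower in DPPIV+ FAPs by 0.27 on the log2 scale.

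Most tested genes that handle or answer to thyroid hormone were lower in DPPIV+ FAPs. Of 12 listed genes of hormone handling and response, 8 were tested, of which 5 were lower, 1 was higher and 2 were not called. Among all genes tested, 17.2% were lower and 15.9% higher. The median log2 fold change of the 8 was -0.56. This list too was chosen with earlier results of these data known. DESeq2 called 4, all lower, where it called 16.6% of all genes. Dio2, the deiodinase that makes active T3, had 86.9 and 115 CPM in DPPIV- FAPs against 26.3 and 36.6 CPM in the DPPIV+ cells. It fell by 1.68 on the log2 scale (SE 0.07, edgeR adjusted p = 4.89e-118). Dio3, the deiodinase that inactivates the hormone, fell in the same direction, from 6.92 and 6.74 CPM to 1.55 and 1.53 CPM (log2 fold change -2.14, SE 0.25, edgeR adjusted p = 2.01e-16). It reached 2 CPM only in the DPPIV- libraries, where it was high, and was tested only through them. Hr, a corepressor of thyroid hormone receptors, fell by 0.79 on the log2 scale (SE 0.07, edgeR adjusted p = 4.92e-29). Klf9, a hormone-responsive gene and the most counted of the list, fell by 0.19 (SE 0.07, edgeR adjusted p = 0.0155). DESeq2 did not call Klf9 (adjusted p = 0.216). Slc16a10, a transporter named after its values were seen, was the higher gene (0.60). The second receptor gene, Thrb, was far less expressed per kb (1.38 in DPPIV- and 1.04 in DPPIV+ FAPs, against 31.4 ± 0.65 and 35.2 ± 1.07 for Thra) and was lower by 0.40 (SE 0.16, edgeR adjusted p = 0.0399), a call that DESeq2 did not make (0.526).

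Esr1 (ENSMUSG00000019768.16, chr10:4611593-5005614, + strand), the oestrogen receptor alpha, showed no difference that passed the test. It measured 47.2 and 40.9 CPM in the DPPIV- cells of mouse 1 and mouse 2 and 46.9 and 50.9 CPM in the DPPIV+ FAPs, so that the groups overlapped. The log2 fold change was 0.15 (SE 0.08, edgeR adjusted p = 0.109), and the mice differed, with -0.01 in mouse 1 and 0.32 in mouse 2. DESeq2 gave an adjusted p of 0.732, and of 12 alternative fits 1 called it higher, the correction for GC content and length (0.0486). Esr2, the other oestrogen receptor, and Pgr, the progesterone receptor, had 0 reads in all 4 libraries.

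The list of oestrogen and sex steroid handling held 14 genes, of which 13 were counted and 7 tested. Of these, 2 were higher, 0 were lower and 5 were not called, where 33.0% of all genes were called. The median log2 fold change was 0.001, and DESeq2 called 1, where it called 16.6% of all genes. The higher genes were Srd5a1, a steroid 5-alpha reductase, at 1.26 (SE 0.24, edgeR adjusted p = 1.22e-06) and Hsd17b7, a hydroxysteroid dehydrogenase that also serves cholesterol synthesis, at 0.53 (SE 0.15, 0.0014). DESeq2 did not call Hsd17b7 (adjusted p = 0.178). Hsd17b11, the most counted, was not called, with a log2 fold change of -0.06 (SE 0.07). Cyp19a1, the aromatase that makes oestrogens, had 0 reads in each library.

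Vdr (ENSMUSG00000022479.15, chr15:97854425-97910630, - strand), the vitamin D receptor, was close to the limit of the filter and was not tested. It had 36 and 45 reads in DPPIV- FAPs and 26 and 37 reads in DPPIV+ FAPs, which is 1.72 and 2.30 CPM against 1.44 and 2.03 CPM. On unscaled totals it reached 2 CPM in 1 library, with 1.997 CPM in the next. The cell types overlapped, the log2 ratio was -0.25 in mouse 1 and -0.18 in mouse 2, and without the filter the adjusted p by edgeR was 0.743. Of 10 genes of vitamin D handling and response, 2 were tested. Cyp27a1, which hydroxylates sterols and vitamin D, was higher (log2 fold change 0.36, SE 0.08, edgeR adjusted p = 1.22e-05, DESeq2 0.0659), while Pdia3, the most counted, was at -0.04 (SE 0.07). Cyp24a1, the vitamin D-degrading enzyme and a classical target of the receptor, had 0 reads in all libraries.

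**Figure D4:**
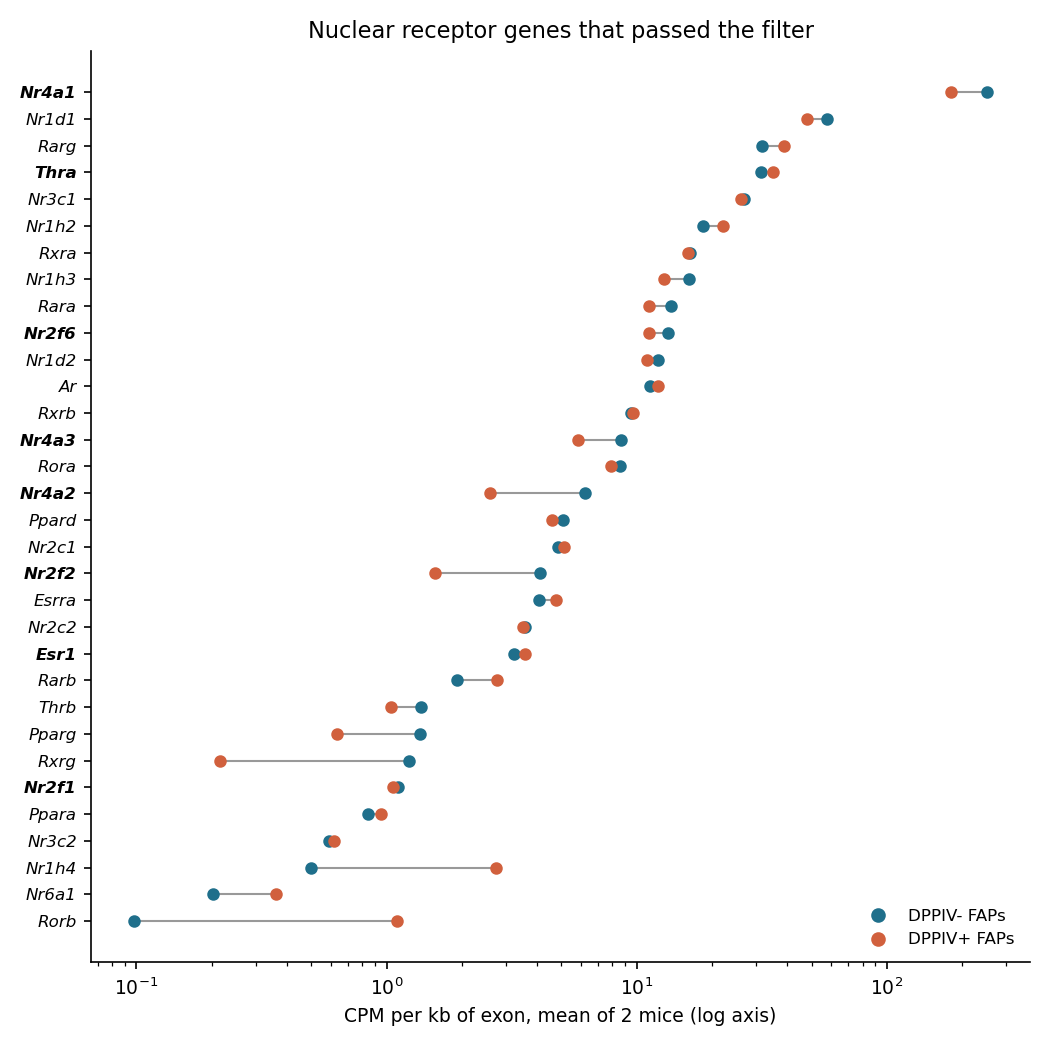
Mean CPM per kb of exon (log axis, n = 2 mice) in DPPIV- FAPs (blue) and DPPIV+ FAPs (orange) of the 32 nuclear receptor genes that passed the filter, with the 8 receptors described here in bold. Nr4a1 lies apart at the top at 252 and 181 CPM per kb, and Rorb, Rxrg and Nr1h4 have the longest lines.

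Among all 49 nuclear receptor genes of the mouse, Nr4a1 ranked first per kb in both cell types. It made up 44.0% and 44.6% of the summed level per kb of the 49 genes in the DPPIV- cells of mouse 1 and mouse 2, and 40.1% and 34.0% in the DPPIV+ FAPs. Thra ranked 4 in both, next to Rarg, and Nr2f6 ranked 10 in both. Nr4a2 went from rank 16 in DPPIV- to rank 23 in DPPIV+ FAPs and Nr2f2 from rank 19 to rank 24. Many neighbours in this order lie within each other's spread, and the ranks are a description.

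Of the other 40 nuclear receptor genes, 24 were tested, of which 6 were higher, 6 were lower and 12 were not called, a called share to set beside the 33.0% of all genes. Their median log2 fold change was -0.001, and DESeq2 called 4 of the 24, where it called 16.6% of all genes. Rorb, an orphan receptor related to the retinoic acid receptors, had 23 and 21 reads in DPPIV- FAPs against 240 and 201 in DPPIV+ FAPs (log2 fold change 3.48, SE 0.23, edgeR adjusted p = 6.10e-48). Nr1h4, the bile acid receptor FXR, had 31 and 16 reads against 136 and 92 (2.45, SE 0.27, 4.43e-19). Both cell types held these genes at low levels, at most 13.3 CPM for Rorb. Rorb and Nr1h4 reached 2 CPM only in the DPPIV+ libraries. They were tested only through the cell type where they were high, and their p-values carry that limit. The remaining higher genes were Nr6a1 (0.83), the retinoic acid receptors Rarb (0.54) and Rarg (0.29) and the oxysterol receptor Nr1h2 (0.26), of which DESeq2 called Rarg.

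On the lower side, Rxrg, a retinoid X receptor that pairs with many other receptors, had 62 and 53 reads in DPPIV- FAPs against 7 and 11 in DPPIV+ FAPs (log2 fold change -2.50, SE 0.35, edgeR adjusted p = 1.71e-11). Rxrg reached 2 CPM only in the DPPIV- libraries and was tested only through them. Pparg, the adipogenic receptor, had 96 and 68 reads against 29 and 39 (-1.10, SE 0.26, 1.29e-04), a call that DESeq2 did not make. The other lower genes were Thrb (-0.40), Nr1h3 (-0.32), Rara (-0.29) and Nr1d1 (-0.27). The more abundant partners Rxra and Rxrb were not called, at -0.03 (SE 0.07) and 0.02 (SE 0.08). Of the 16 genes under the filter, 10 had 0 reads in all libraries and the other 6 had at most 13 reads in any library.

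**Figure D5:**
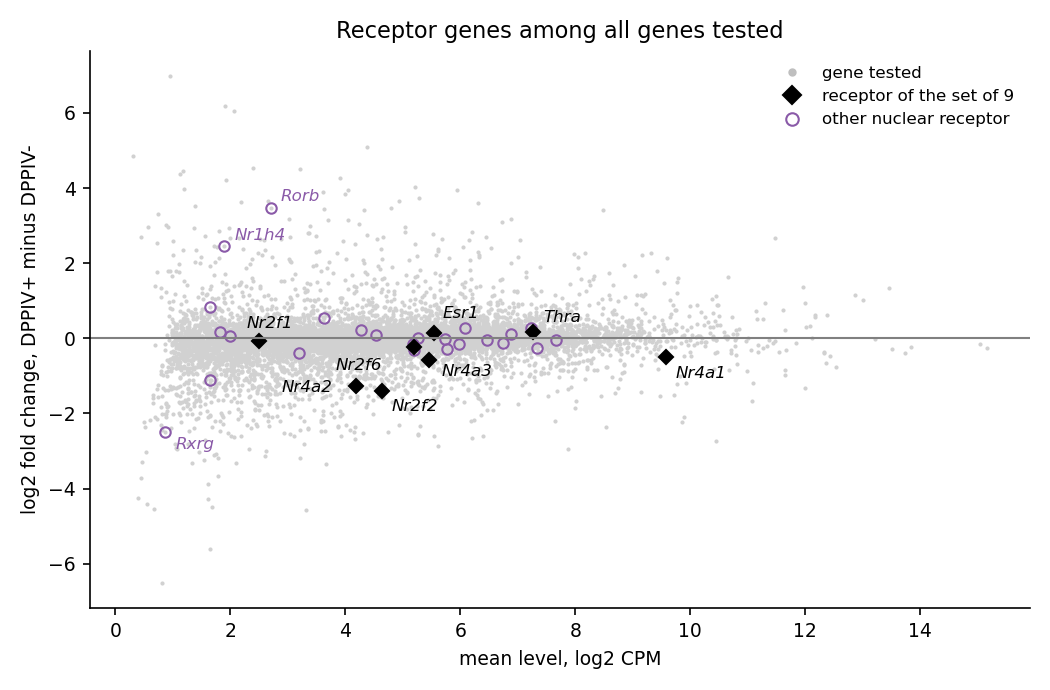
Log2 fold change (DPPIV+ minus DPPIV-) against mean level (log2 CPM) of the 11588 genes tested (grey), with the 8 tested receptors of the set of 9 as black diamonds and 24 other nuclear receptors as purple circles. Nr2f2 and Nr4a2 lie in the lower fringe of the grey cloud, and Nr4a1 lies at the right at a fold change of -0.49.

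Coregulators are proteins that nuclear receptors recruit to activate or silence genes. Of 20 listed, 18 were tested, of which 3 were higher, 2 were lower and 13 were not called. Among all genes tested, 33.0% were called. The median log2 fold change of the list was -0.01, and DESeq2 called 2 of the 18, where it called 16.6% of all genes. Zfpm2, a zinc finger cofactor of GATA factors and of COUP-TFII, had the largest difference at 0.84 (SE 0.14, edgeR adjusted p = 1.59e-08). Ncoa2, a p160 coactivator, followed at 0.44 (SE 0.07, 5.70e-10), and Nrip1, a corepressor of oestrogen and other receptors, was at -0.29 (SE 0.07, 1.14e-04). DESeq2 did not call Nrip1 (adjusted p = 0.138).

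Between the animals, 1 of the 8 receptors differed. Nr4a1 was lower in mouse 2 by 0.22 on the log2 scale (SE 0.07, edgeR adjusted p = 0.0287 for the mouse term), where 8.98% of all genes were called, with a log2 ratio between the mice of -0.39 in DPPIV+ FAPs and -0.04 in DPPIV- FAPs. DESeq2 did not call it (adjusted p = 0.727). The other 7 receptors had edgeR adjusted p-values of 0.394 to 0.819 for the mouse term.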

How the data were processed

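Bulk RNA of DPPIV- and DPPIV+ FAPs of 2 mice was analysed (4 libraries). The authors demultiplexed paired-end reads (bcl2fastq 2.20), aligned them to mm10 with STAR, tallied reads per gene with RnaReadCounter and deposited raw counts per gene symbol. The labels name a NEBNext Ultra II stranded kit and the methods a TruSeq Stranded kit. Whether counting used strand is not given in the sources used here.

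From these counts, genes with at least 2 CPM (unscaled) in at least 2 libraries were kept. CPM values use TMM-scaled totals. Cell types were compared in R 4.3.3 with edgeR 4.0.16, by the quasi-likelihood F test (two-sided) with mouse and cell type in the model and Benjamini-Hochberg adjustment over 11588 genes. The SE is the log2 fold change over the root of F. Prior degrees of freedom came out infinite, which sets each gene's spread by its abundance alone and makes p-values of abundant genes very small. The SE follows from the same spread and does not measure how far the 2 mice lie apart for a gene. Mouse pairs the libraries because each animal gave 1 of each cell type, and the difference between the mice in the 2 cell types correlated across genes (r = 0.415). DESeq2 1.42.0 and the other alternatives are given in the closing section, and the 12 alternative fits counted per gene leave out the test against a 1.5-fold change. Log2 ratios within a mouse used a prior count of 0.125. Gene models were GENCODE M21 (GRCm38), where 23384 symbols matched, and exon lengths are unions over transcripts. Figures and tables were made with Python 3.11.15.

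The 9 receptors and all gene lists were chosen with earlier results of these data known. Named were all 9 receptors, other nuclear receptors past the threshold, for each pathway list the 3 largest differences past the threshold and the most counted gene, and genes whose exons overlap a receptor. Some listed genes that this rule or a count would name are not reported here. Reads carry no molecular identifiers, so limits from counts cover counting error only.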

Additional observations from a re-analysis of the deposited data

How the results depend on the processing

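The sign of each called receptor was kept in every alternative run. With DESeq2's Wald test in place of edgeR, 1918 genes, 3 of the 8 receptors tested, 4 of 24 other nuclear receptors and, between the mice, 110 genes were called, against 3826, 6, 12 and 1041. Against a 1.5-fold change, 1092 genes, 2 of the 8 receptors (Nr2f2 and Nr4a2) and 3 other nuclear receptors passed. Without the replicate block for mouse, 2120 genes, 4 receptors (Nr2f6 and Thra were lost) and 7 other nuclear receptors were called. With 1 library left out and the mouse term dropped, the counts were 2139 genes (without DPPIV- of mouse 1), 1364 (DPPIV+ of mouse 1), 2035 (DPPIV- of mouse 2) and 1553 (DPPIV+ of mouse 2), and ran from 2 to 4 receptors and from 3 to 8 other nuclear receptors. In these fits the lone library is assumed to vary like the others. The lowest number of receptors came without the DPPIV+ library of mouse 2, where Nr4a1 and Nr4a3 were also lost. The call of Thra was also lost under upper-quartile factors, without a filter and with 2 CPM in at least 3 libraries, and the correction for GC content and length (values for 96.7% of genes, the rest uncorrected) lost Nr2f6 and gained Esr1. RLE factors and robust moderation changed no receptor's call. Without 1 mouse, 1 library per cell type remains and no count of calls can be had. For the difference between the mice, the fits without the mouse term or with 1 library left out, the GC correction and the 1.5-fold test were not run. Vdr and other genes below 2 CPM are limited by depth.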

Other observations

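Some genes below the filter on low counts had uneven reads between the cell types and were picked out after their values were seen, with no test. Thrsp, a lipogenic gene that responds to thyroid hormone, had 27 reads (mouse 1) and 40 reads (mouse 2) in DPPIV- FAPs against 3 and 5 reads in the DPPIV+ FAPs. Greb1, a classical oestrogen-responsive gene, had 24 and 24 reads against 2 and 4 reads. Ppargc1a, the coactivator PGC-1 alpha, had 12 and 8 reads against 4 and 3 reads.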
